A study of Mus musculus with 2 samples.

Results

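Marker genes of tubular injury were followed in single cells of mouse kidney: *Havcr1*, *Lcn2*, *Spp1*, *Clu*, *Sox9*, *Krt20*, *Gdf15*, *Timp1* and *Cp*. They were picked by name as known marks of tubular injury, with earlier results of these libraries in view, and are 9 of the 31053 genes in the count matrices. The study made 1 library from young and 1 from old MRL-*lpr* mice, a strain in which both groups carry the *lpr* mutation of *Fas* and develop lupus-like nephritis with age; the labels give the ages only as young and old. Kidneys of several mice were pooled, passed over a density gradient, enriched with a magnetic kit for innate lymphoid cells and sorted for live cells before 10x 3′ version 3.1 capture, so the shares of cell types are those of the enriched suspension and not of the kidney. The comparison of old with young asks how the tubule cells carried along in these libraries differed in injury genes, and it compares 2 libraries, not 2 ages, since there are no replicates.

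When the proximal tubule is damaged, its surviving cells lose transport functions and switch on a set of genes for clearing debris, signalling and repair. Some products of these genes reach the urine or blood, which is why several are used as markers of kidney injury. Part of such cells regain their former state, while others keep an inflammatory, incompletely repaired state in which *Vcam1* and *Ccl2* are known to stay on.

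The young library held 15076 barcodes with 156787812 UMIs (unique molecular identifiers, each counting 1 captured transcript), and the old library 12622 barcodes with 126334256 UMIs. After removal of barcodes under 200 genes or above 20% mitochondrial UMIs, 11429 young and 10232 old ones remained, with medians of 7881 and 6933 UMIs. The libraries had 41 barcodes in common, of which 26 passed in both. Cells were gated on marker genes that include none of the 9 members. A proximal tubule cell had UMIs of at least 4 of 16 markers (such as *Lrp2*, *Slc34a1* and *Miox*) after every barcode was thinned at random to 1000 UMIs, and had a larger share of that list than of any other tubule list whose minimum it reached. Barcodes that also passed the minimum of another lineage (3 markers, or 2 for leukocyte classes), or that passed only tissue lists and had a *Ptprc* UMI among the 1000, were set aside as mixed. Over all classes these were 283 young and 245 old barcodes, 88 and 124 of them called doublets. The gate gave 6512 young cells (57.0% of the kept cells) and 3643 old cells (35.6%). Their median depths were close, 14878.5 and 15593 UMIs. Their 16 gate markers summed to 23619 CPM in the young library and 21968 CPM in the old.

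Levels below are CPM of the UMIs summed over a group of cells, with exact Poisson 95% intervals. Shares are of cells with a UMI after thinning to 5000 UMIs, which 5489 young and 3233 old proximal tubule cells reached and 1023 and 410 did not; they carry exact Clopper-Pearson 95% intervals. Ratios are old over young on the log2 scale with exact binomial intervals. All intervals cover counting error only. Because 3′ tags differ in capture between genes, levels are compared within a gene and not between genes.

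The methods describe female mice, but both libraries held many cells with Y-linked UMIs and no *Xist* UMI. Among proximal tubule cells, 809 young cells (12.4%) and 577 old cells (15.8%) had *Xist* and no Y-linked UMI, and 3594 (55.2%) and 1802 (49.5%) had a Y-linked and no *Xist* UMI. The other cells had both or neither. Whether kidneys of both sexes were pooled is not known. Values within each kind of cell are therefore given too.

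*Havcr1* encodes KIM-1, a receptor by which injured proximal tubule cells take up dying neighbours. It lies on chromosome 11 (ENSMUSG00000040405, chr11:46735080-46779578, plus strand, GRCm38). Its level in proximal tubule cells was 3.06 CPM (2.75 to 3.39) in the young library and 5.24 CPM (4.70 to 5.81) in the old, from 355 UMIs in each. The share with a UMI was 0.893% of young cells (0.661 to 1.18) and 1.73% of old cells (1.31 to 2.24); without thinning it was 3.22% and 4.31%. The log2 ratio was 0.78 (0.56 to 0.99). When 6 gate markers were required, the levels were lower, 1.89 and 3.47 CPM from 186 and 192 UMIs, with a log2 ratio of 0.88.

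*Sox9* encodes a transcription factor of tubule progenitors that surviving cells use again during repair (ENSMUSG00000000567, chr11:112782224-112787760). It had 4 UMIs in 4 young proximal tubule cells and 160 UMIs in the old ones, 0.0345 CPM (0.00939 to 0.0882) against 2.36 CPM (2.01 to 2.75). At matched depth 1 young cell (0.0182%) and 23 old cells (0.711%, 0.451 to 1.07) had a UMI, and without thinning 0.0614% and 1.07%. The log2 ratio of 6.10 (4.71 to 7.99) was number 19 from the top among 12540 genes with at least 100 UMIs over both libraries. *Cp* encodes ceruloplasmin, a copper-carrying ferroxidase (ENSMUSG00000003617, chr3:19957054-20009145). Its level was 1.65 CPM (1.43 to 1.91) in young and 6.15 CPM (5.57 to 6.77) in old proximal tubule cells, a log2 ratio of 1.89 (1.64 to 2.15). The share of cells with *Cp* was 0.383% in the young (0.237 to 0.584) and 1.14% in the old library (0.807 to 1.57), unthinned 1.04% and 2.53%.

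*Spp1* encodes osteopontin, a secreted phosphoprotein that binds integrins and draws in macrophages, and *Gdf15* encodes a secreted cytokine that many stressed cells release. Both were common in proximal tubule cells of either library. *Spp1* (ENSMUSG00000029304, chr5:104435118-104441050) stood at 529 CPM (524 to 533) in the young library and 899.7 CPM (892.6 to 906.9) in the old, a log2 ratio of 0.77 (0.75 to 0.78). The share with *Spp1* differed less, 50.7% of young cells (49.4 to 52.1) and 54.1% of old cells (52.3 to 55.8), unthinned 63.4% and 67.4%. The upper end of the distribution differed more: cells with at least 10 *Spp1* UMIs among 5000 were 10.4% of all young ones and 16.8% of all old ones. The 5% of cells with most *Spp1* held 31.5% of its UMIs in the young and 42.6% in the old library. *Gdf15* (ENSMUSG00000038508, chr8:70629393-70632456) stood at 159 CPM (157 to 162) in the young library and 281 CPM (277 to 285) in the old, a log2 ratio of 0.82 (0.79 to 0.85). Its share was 28.8% of young cells (27.6 to 30.0) and 37.3% of old cells (35.6 to 39.0), unthinned 42.2% and 51.9%.

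*Clu* encodes clusterin, a secreted chaperone of misfolded proteins (ENSMUSG00000022037, chr14:65968483-65981547). It was 7.33 CPM (6.85 to 7.84) in young and 7.83 CPM (7.18 to 8.53) in old proximal tubule cells, and its log2 ratio of 0.10 had an interval (-0.06 to 0.25) that spans 0. The shares with *Clu*, 3.06% (2.62 to 3.55) and 3.15% (2.58 to 3.82), overlapped in their intervals; unthinned they were 9.14% and 9.17%.

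The other 3 members were scarce in these cells. *Lcn2* encodes the iron-scavenging protein NGAL, made by injured distal tubules and by neutrophils (ENSMUSG00000026822, chr2:32384633-32388252). It had 12 UMIs in 6 young and 56 UMIs in 14 old proximal tubule cells, 0.103 CPM against 0.826 CPM, a 7.99-fold difference (2.08 to 4.03 on the log2 scale). In the old library 35 of the 56 UMIs lay in 2 cells called doublets, and without doublets the log2 ratio was 1.56. Of the cells with *Lcn2*, 0 of 6 young and 3 of 14 old ones had a UMI of a neutrophil marker, against 5.82% and 11.1% of all proximal tubule cells. *Krt20* encodes a keratin of urothelium and of damaged tubule cells (ENSMUSG00000035775, chr11:99428403-99438150), with 31 young and 12 old UMIs and a log2 ratio of -0.59 whose interval spans 0. Without the cell with most UMIs in each library it was -1.27 (-2.71 to -0.05), from 29 and 7 UMIs. *Timp1* encodes an inhibitor of matrix proteases (ENSMUSG00000001131, chrX:20870166-20874735), with 5 UMIs in 1 young cell and 11 UMIs in the old library. At matched depth *Lcn2* was in 1 young and 5 old cells, *Krt20* in 8 and 2, and *Timp1* in 1 and 3.

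**Figure D1:**
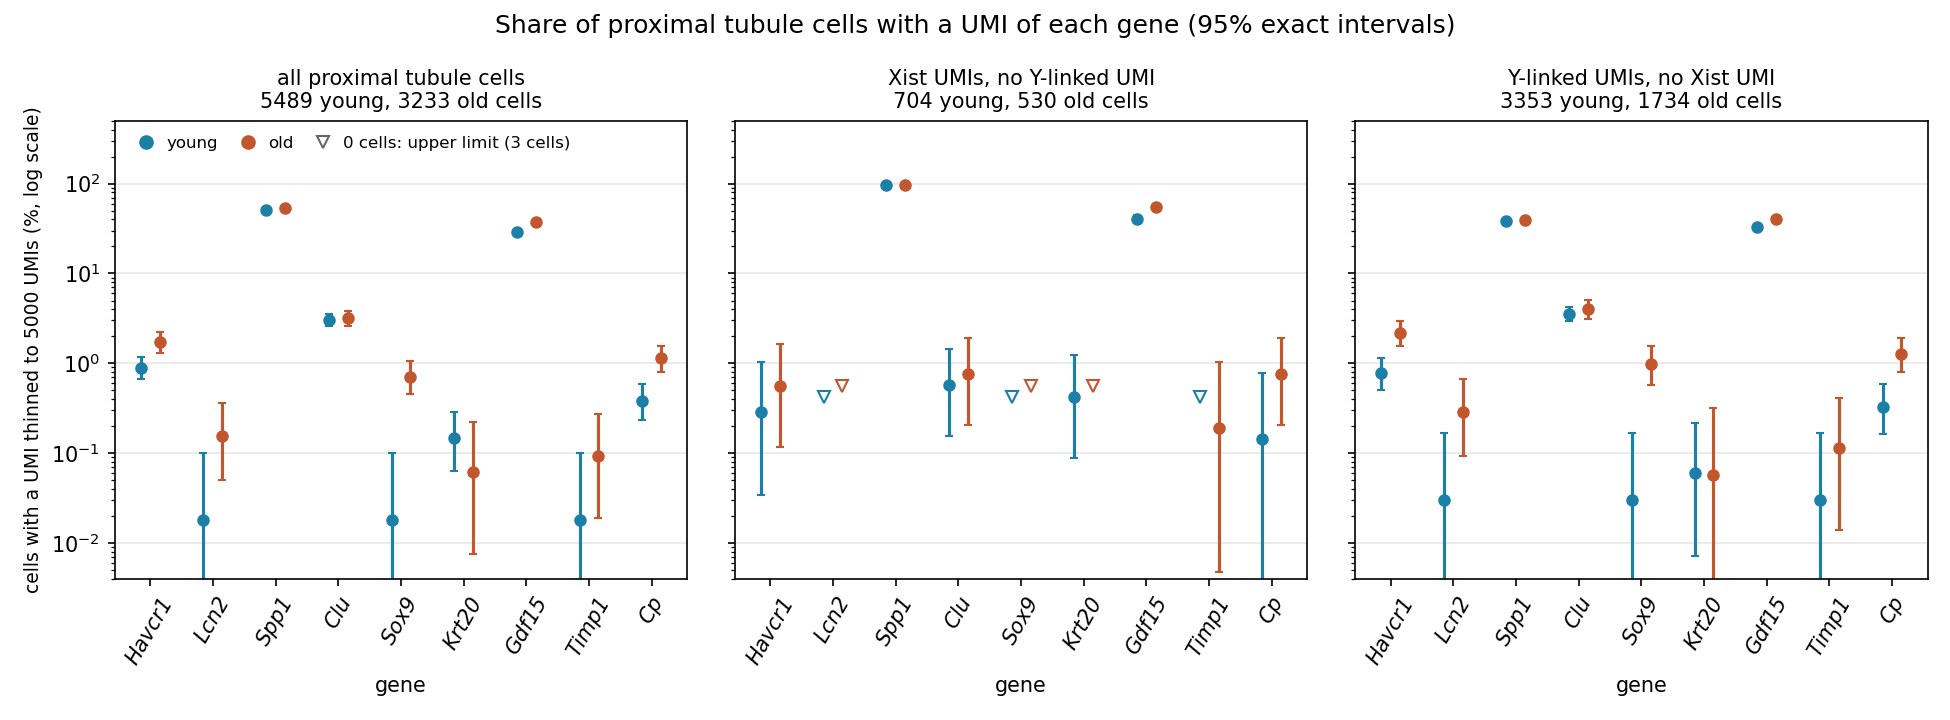
Share of proximal tubule cells with a UMI of each member after thinning to 5000 UMIs (percent, log scale), in all cells, *Xist*-only cells and Y-only cells; blue points are the young and orange the old library, bars exact 95% intervals and open triangles the upper limit for 0 cells. *Spp1* was in 50.7% of young and 54.1% of old cells, and *Sox9* in 0.0182% and 0.711%.

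Of the 9 members, 6 had at least 100 UMIs, and 2 of them (*Sox9* and *Cp*) were at least 2-fold higher in the old library and 0 at least 2-fold lower. *Cp* was under 2-fold in S1 or S2 cells and lower in S3 cells, as given with the segments. When 6 gate markers were required, *Cp* was 0.973 CPM (young) and 2.95 CPM (old), a log2 ratio of 1.60. Of all 12540 genes with that many UMIs, 3.44% were at least 2-fold higher and 2.82% at least 2-fold lower. The median log2 ratio of the 6 members was 0.80 and that of all genes 0.01. *Gdf15*, *Havcr1* and *Spp1* ranked 546, 571 and 584 of the 12540 genes, *Cp* 198 and *Clu* 4343.

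Free RNA in the droplets sets a lower limit to what a share can show. T cells, the most numerous class of the old library outside the tubule, had median depths of 4754 and 4891 UMIs, and B cells 3825 and 5939.5 UMIs, so both were compared with proximal tubule cells after thinning to 1000 UMIs. *Spp1* was then in 29.3% of young and 35.3% of old proximal tubule cells, against 2.47% and 2.11% of B cells and 2.19% and 3.78% of T cells. *Gdf15* was in 10.96% and 14.8% of proximal tubule cells, against 2.16% and 1.41% of B cells and 1.20% and 1.12% of T cells. *Clu* was in 0.676% and 0.659% of proximal tubule cells, and in 0.598% and 0.191% of T cells, and the young intervals overlap; summed over cells, T cells had 1.11 and 1.36 CPM of *Clu*. B cells had 0 *Clu*, *Sox9*, *Cp*, *Krt20* and *Timp1* UMIs in both libraries.

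*Havcr1* was in 0.261% of young and 0.357% of old proximal tubule cells at 1000 UMIs, against 0 of 324 young B cells, which allows a share of up to 0.926%, and 1 of 142 old B cells (0.704%). Some B cells are known to make this receptor: 5 UMIs in 5 old B cells gave 4.53 CPM (1.47 to 10.6), a level whose interval includes that of the old proximal tubule cells. At 1000 UMIs 0 of 502 young and 0 of 3673 old T cells had *Havcr1*, which allows up to 0.598% and 0.0817%. The young share of the proximal tubule was thus not detectably above either class at that depth. Without thinning, T cells had 0 young *Havcr1* UMIs, which allows up to 1.11 CPM, and 7 old ones, 0.327 CPM (0.132 to 0.674). *Sox9* had 0 UMIs in young T cells, which by the same limit gives no level to set beside that of young proximal tubule cells, and 3 UMIs in 1 old T cell (0.0289 to 0.410 CPM). *Cp* had 0 UMIs in young T cells and 1.12 CPM (0.719 to 1.67) in old ones. The average *Lcn2* level of proximal tubule cells was below that of B cells, which was 4.32 CPM (1.59 to 9.41) in the young library and 11.8 CPM (6.27 to 20.1) in the old, so by level *Lcn2* in the proximal tubule gate was not detectable above background. Its UMIs were unevenly spread, with 7 of 12 young and 21 of 56 old ones in 1 cell, and their source was not tested.

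The proximal tubule runs through segments S1 and S2, which reclaim most of the filtrate, into S3, which is most sensitive to loss of oxygen. By their own markers 2549 young and 1509 old cells were S1 or S2, 1012 and 302 were S3, and 2951 and 1832 were given no segment. The S3 marker *Cyp7b1* itself differed, with 600 young and 12 old UMIs in proximal tubule cells (log2 ratio -4.87). Its part in the S3 call was not tested. *Havcr1* was higher in S3, at 7.86 against 0.712 CPM in the young library (log2 ratio 3.47, 2.90 to 4.08) and 6.23 against 3.42 CPM in the old (0.87, 0.30 to 1.41). The old over young ratio of *Havcr1* was 2.26 in S1 or S2, from 30 young and 89 old UMIs, and -0.34 in S3, from 181 and 42 UMIs, the latter with an interval (-0.86 to 0.16) that spans 0. *Cp* showed the same split, 0.93 in S1 or S2 and -0.85 in S3, the latter from 86 young and 14 old UMIs (-1.78 to -0.02). Cells given no segment held 144 of the 355 young and 224 of the 355 old *Havcr1* UMIs, 2.83 against 6.39 CPM. They held 49 of the 192 young and 336 of the 417 old *Cp* UMIs, 0.963 against 9.59 CPM. These differences between segments were not tested.

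*Spp1* had the opposite distribution along the tubule. It was 855.6 CPM in young and 1106 CPM in old S1 or S2 cells, against 97.9 and 285 CPM in S3, and 67.3% and 65.8% of S1 or S2 cells held it against 15.2% and 23.9% of S3 cells. *Clu* was higher in S3, at 11.3 against 4.91 CPM in the young and 11.4 against 5.88 CPM in the old library. *Gdf15* differed less between segments, at 176 and 149 CPM in young S1 or S2 and S3 cells and 342 and 348 CPM in old ones. *Sox9* in the old library was 2.38 CPM in S1 or S2 and 1.34 CPM in S3.

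Male and female proximal tubules differ in many transport and androgen-dependent genes. *Spp1* differed between cells with *Xist* only and cells with Y-linked UMIs only. It was 1744 CPM in young cells with *Xist* only and 284 CPM in those with Y-linked UMIs only, a 6.13-fold difference, and 2099 and 579 CPM in the old library, a 3.62-fold difference. After thinning, 95.9% of young and 96.8% of old *Xist*-only cells had *Spp1*, against 38.7% and 39.4% of Y-only cells. *Kap*, an androgen-driven gene chosen after its values were seen, went the other way at 5654 and 57051 CPM in young *Xist*-only and Y-only cells and 2507 and 46763 CPM in old ones. S3 cells made up 1.73% of young *Xist*-only cells and 20.7% of Y-only cells, and 1.04% and 11.7% in the old library. The part of the segments in the *Spp1* difference was not tested.

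Several scarcer members were lower in *Xist*-only cells, while young *Krt20* was higher, at 0.905 against 0.149 CPM from 12 UMIs in each (log2 ratio 2.60, 1.32 to 3.89). Old *Krt20* and *Timp1* had 1 and 2 UMIs in *Xist*-only cells, and intervals of their ratios that span 0. *Clu* was 1.43 CPM in *Xist*-only and 8.19 CPM in Y-only cells of the young library, and 2.92 and 9.25 CPM in the old. *Havcr1* was 2.04 and 2.78 CPM in the young library, with an interval of the ratio that spans 0, and 2.19 and 6.15 CPM in the old, a log2 ratio of -1.49. *Cp* was 0.603 and 1.46 CPM in young and 1.46 and 6.38 CPM in old cells. In the old library *Sox9* had 3 UMIs in *Xist*-only and 141 UMIs in Y-only cells, and *Lcn2* 2 and 52 UMIs. *Gdf15* differed little, with log2 ratios of *Xist*-only over Y-only cells of 0.27 and 0.17.

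Within the Y-only cells the old over young log2 ratios were 1.14 for *Havcr1*, 1.03 for *Spp1*, 0.86 for *Gdf15* and 2.12 for *Cp*. Within the *Xist*-only cells they were 0.27 for *Spp1* and 0.76 for *Gdf15*. There *Havcr1* was 0.10 (-0.79 to 0.98) from 27 young and 21 old UMIs and *Cp* 1.27 (-0.08 to 2.73) from 8 and 14 UMIs, both with intervals that span 0. *Clu* was 0.17 (-0.01 to 0.36) in Y-only and 1.03 (0.13 to 1.95) in *Xist*-only cells, the latter from 19 and 28 UMIs. The part that the mixture of these cells plays in the pooled ratios was not tested.

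Injury marks can fall in the same cells or in different ones; a mixture of segments or cell types in the gate can also bring genes together. After thinning to 5000 UMIs, 956 young cells (17.4%) and 832 old cells (25.7%) had at least 2 of the 9 members, and 36 (0.656%) and 68 (2.10%) had at least 3. Up to 5 members were found in a young cell and up to 6 in an old cell. Most of the cells with at least 2 members had both *Spp1* and *Gdf15*, which occurred together in 867 young cells where the product of their shares gives 802, and in 754 old cells where it gives 652. Among the 7 members other than *Spp1* and *Gdf15*, at least 2 were found in 6 young cells (0.109%, 0.0401 to 0.238) and 27 old cells (0.835%, 0.551 to 1.21).

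In the old library *Havcr1*, *Sox9* and *Cp* shared cells. *Sox9* and *Cp* occurred together in 9 cells where the product of their shares gives 0.263, a ratio of 34.2 (15.6 to 64.9). *Havcr1* and *Sox9* shared 6 cells against 0.398, a ratio of 15.1 (5.53 to 32.8), and *Havcr1* and *Cp* shared 6 cells against 0.641, a ratio of 9.36 (3.44 to 20.4). In all, 15 old cells had at least 2 of *Havcr1*, *Sox9* and *Cp* and 3 cells had the full trio, against 1 and 0 young cells. *Spp1* was in 36 of the 37 old cells with *Cp* (97.3%) and in 21 of the 23 with *Sox9* (91.3%). *Havcr1* and *Clu* shared 5 old cells against 1.77, a ratio of 2.83 with an interval (0.919 to 6.60) that includes 1. In the young library *Clu* and *Cp* shared 4 cells against 0.643, a ratio of 6.22 (1.70 to 15.9). Pairs with *Timp1*, *Lcn2* or *Krt20* rested on at most 2 cells where both genes of the pair were scarce, such as *Havcr1* with *Timp1* in 2 old cells (ratio 38.5, 4.66 to 139) and 1 young cell (112, 2.84 to 624).

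The 27 old cells with at least 2 scarce members had a median of 22092 UMIs, against 17255 UMIs in cells with none, and 2 of them were called doublets. Of these cells, 27 had *Spp1*, 18 had *Gdf15* and 0 had a UMI of the leukocyte gene *Ptprc*, which the gate itself selects against. Their median number of gate markers was 5, against 7 in cells with none of the scarce members. By segment 6 were S1 or S2, 3 were S3 and 18 had no segment, and 20 were Y-only while 1 was *Xist*-only.

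Among the more common members some pairs stood near or below the product. *Spp1* and *Clu* shared 51 young cells against 85.2 from the product of their shares (ratio 0.598, 0.445 to 0.787), and 44 old cells against 55.1. Within young S1 or S2 cells this pair was in 22 cells against 38.3 (0.574, 0.360 to 0.869), within those of no segment in 22 against 36.6 (0.601, 0.377 to 0.911), and within S3 in 7 against 5.32. *Clu* and *Gdf15* stood near the product, with 48 young cells against 48.4 and 38 old cells against 38.0. *Havcr1* and *Spp1* shared 23 young cells against 24.9 and 38 old cells against 30.3. By segment the young cells of this pair were 9 against 3.80 in S3 (ratio 2.37, 1.08 to 4.50), 3 against 5.38 in S1 or S2 and 11 against 7.70 in cells of no segment, and the old ones 2 against 2.63, 14 against 11.2 and 22 against 13.9. Pairs were not computed within *Xist*-only or Y-only cells.

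**Figure D2:**
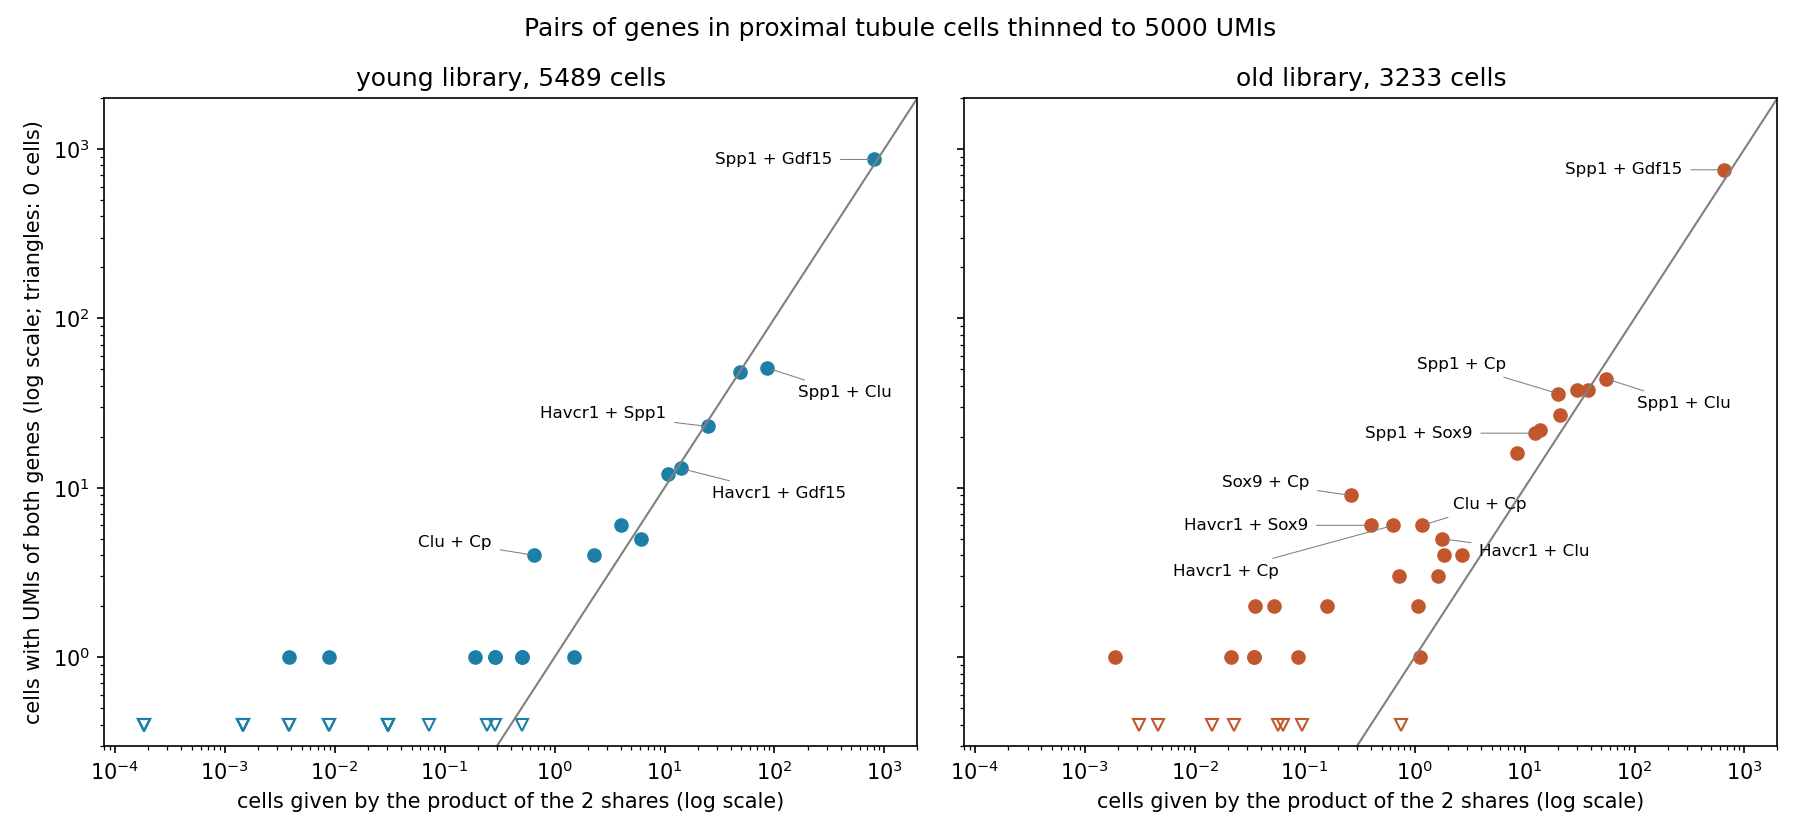
Proximal tubule cells with UMIs of both members of a pair (vertical axis, log scale; triangles stand for 0 cells) against the number given by the product of their shares (horizontal axis, log scale), 1 point a pair, in the young and the old library, with a line where both are equal. *Sox9* with *Cp* lay above the line in the old library with 9 cells against 0.263, and *Spp1* with *Clu* below it in the young library with 51 cells against 85.2.

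Detection of *Havcr1*, the classic injury receptor, gives a split across which the rest of the transcriptome can be compared within a library. A cell counted as without it had no UMI among 5000 and may still express it: these cells held 211 young and 135 old *Havcr1* UMIs before thinning, against 141 and 209 in the cells with it. At 5000 UMIs 49 young and 56 old cells had *Havcr1*, with medians of 27153 and 18447.5 UMIs, against 17276.5 and 17236 UMIs in the cells without it. S3 cells were 51.0% of the young cells with *Havcr1* and 15.3% of those without, and 19.6% and 8.34% in the old library. Of the cells with *Havcr1*, 26 young and 38 old ones were Y-only, and 2 young and 1 old were called doublets. The median mitochondrial share was 3.82% with and 5.90% without *Havcr1* in the young library, and 5.34% and 5.20% in the old. *Ptprc* was in 10.2% of young cells with and 4.45% of those without *Havcr1*, and in 7.14% and 7.40% of old ones.

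In the old library the levels of the 5 other members with at least 100 UMIs were also higher where *Havcr1* was found. *Cp* was 152 CPM in cells with *Havcr1* and 3.59 CPM in cells without, a log2 ratio of 5.40 (5.11 to 5.69), with 70 of its 173 UMIs in 1 cell. *Sox9* was 45.6 against 1.56 CPM, a log2 ratio of 4.87. *Spp1* was 6076 against 800.6 CPM, *Gdf15* 816 against 272 CPM and *Clu* 20.2 against 7.67 CPM. The shares of cells at matched depth had intervals that overlap for *Gdf15* (48.2% with and 37.1% without *Havcr1*) and *Clu* (8.93% and 3.05%). All 5 members with at least 100 UMIs were at least 2-fold higher in cells with *Havcr1*, where 5.69% of 11157 genes were, while 4.91% of genes were at least 2-fold lower. The median log2 ratio of all genes was 0.04. Within old S3 cells alone *Cp* was 3.53 from 4 UMIs (1.38 to 5.37) and *Gdf15* 0.72, while *Spp1* was -0.30 (-0.70 to 0.08) and *Clu* -0.53 from 2 UMIs (-3.60 to 1.38).

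In the young library 1 of 4 members with enough UMIs was at least 2-fold higher in cells with *Havcr1*, against 4.64% of 11815 genes higher and 10.4% lower, with a median of all genes of -0.07. That member was *Cp*, at 21.6 against 1.42 CPM (log2 ratio 3.93, 3.31 to 4.50), with 16 of its 30 UMIs in 1 cell; without the top cells it was 3.06. *Spp1* was 921 against 519.6 CPM, but 632 of its 1279 UMIs lay in 1 cell, and without the top cell of each group its log2 ratio went from 0.83 to -0.10. *Gdf15* was 205 against 160.2 CPM, and without the top cells its log2 ratio went from 0.36 to -0.075. *Clu* had an interval that spans 0. Within young S3 cells alone *Spp1* was 2.52 (2.36 to 2.67), *Cp* 2.04 (1.03 to 2.93) and *Gdf15* -0.22 (-0.51 to 0.05). The shares of cells with *Spp1* at matched depth were 46.9% with and 50.8% without *Havcr1*, and 67.9% and 53.8% in the old library, with intervals that overlap in both. When the split was made at 2000 UMIs, the young log2 ratios of *Spp1* and *Gdf15* were -1.16 and -0.25, and that of *Cp* was 1.22 from 3 UMIs, with an interval (-1.07 to 2.79) that spans 0.

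**Figure D3:**
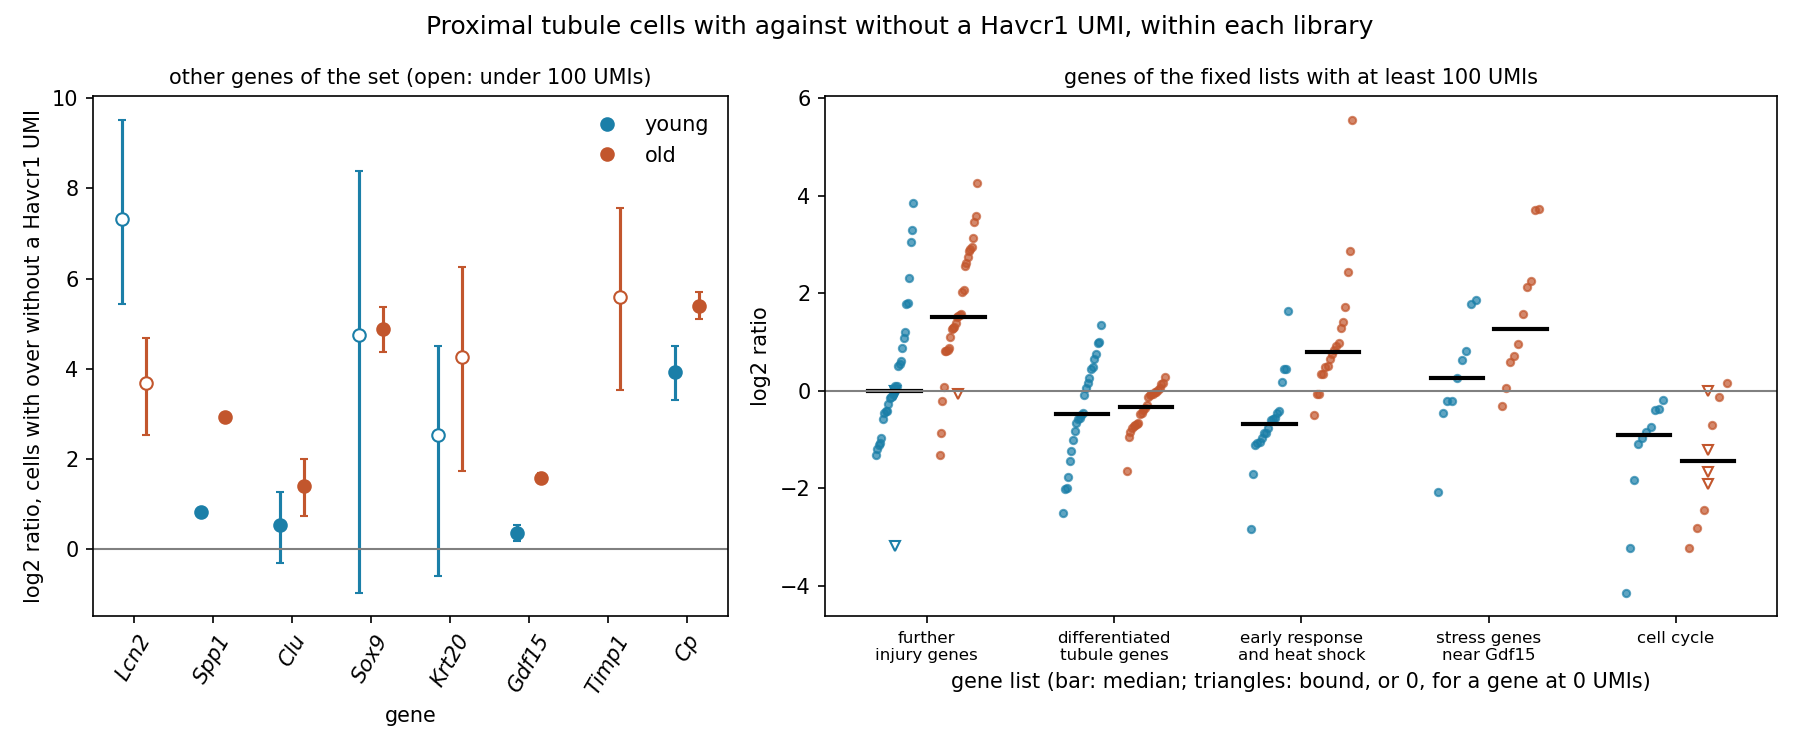
Log2 ratio of levels in proximal tubule cells with over without a *Havcr1* UMI, by library: at left the other members with exact 95% intervals (open points have under 100 UMIs), at right the genes of the fixed lists with medians as bars and triangles for genes at 0 UMIs. *Cp* stood at 3.93 in the young and 5.40 in the old library, and the median of further injury genes at 0 and 1.51.

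Across both libraries 101 of 11016 genes were at least 2-fold higher in cells with *Havcr1* and 164 at least 2-fold lower. The 10 genes highest in both were *Kng2*, *Slc7a12*, *Cp*, *Slc22a19*, *Scd1*, *Lrg1*, *C8a*, *Fgg*, *Slc22a13* and *Epcam*. *Scd1*, *C8a* and *Epcam* were 3.66, 3.47 and 3.65 in the young library and 4.34, 3.14 and 3.07 in the old, on the log2 scale. *Kng2*, a kininogen, was 4.41 in the young and 4.10 in the old library, and the transporter *Slc22a19* was 3.84 and 5.80. *Slc7a12* (4.38 and 4.01) and *Slc22a13* (3.12 and 4.09) belong to the S3 marker list. Several of these values rested largely on 1 cell. In the old library 1 cell held 27 of 36 UMIs of *Kng2*, 27 of 43 of *Scd1* and 34 of 61 of *Slc22a19*. In the young library 1 cell held 83 of 88 UMIs of *Lrg1* (4.22 and 3.51) and 36 of 38 UMIs of *Fgg* (3.85 and 3.14). The gate markers summed to 15419 CPM in young cells with *Havcr1* and 23756 CPM in those without, and to 15265 and 22100 CPM in the old library.

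Genes outside the members show what else went with these differences. Between the libraries, 11 of 33 further injury genes of the tubule with enough UMIs were at least 2-fold higher in the old library and 1 lower, with a median log2 ratio of 0.57. Of all 12540 genes with enough UMIs, 3.44% were at least 2-fold higher and 2.82% at least 2-fold lower. *Vcam1* was 0.879 CPM in the young library and 15.1 CPM in the old (log2 ratio 4.10), *Ccl2* 0.198 and 2.68 CPM (3.76), and *Cxcl1* 6.77 and 46.9 CPM (2.79). Stress genes near *Gdf15*, those of the integrated stress and p53 responses, had 3 of 10 higher and 0 lower with a median of 0.33, led by *Chac1* at 0.198 and 1.84 CPM (3.22). Genes of the differentiated proximal tubule outside the gate had 0 of 24 past 2-fold either way and a median of -0.01.

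Early response and heat shock genes had 2 of 18 higher and 2 lower in the old library, with a median of -0.07, where 3.44% of all genes were higher and 2.82% lower. The lower ones were *Hspa1b* at 125 and 19.9 CPM (log2 ratio -2.65) and *Hspa1a* at 94.1 and 16.9 CPM (-2.48). Cell cycle genes had 0 of 10 higher and 5 lower with a median of -0.94, with *Mki67* at 24.9 and 5.97 CPM (-2.06) and *Ccnb1* at 6.71 and 2.42 CPM (-1.47). The 4 Y-linked genes had a median of -0.40.

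In old cells with *Havcr1*, 21 of 30 further injury genes were at least 2-fold higher than in cells without and 1 lower, with a median of 1.51, and 5 of 10 stress genes near *Gdf15* were higher with a median of 1.27. Of all 11157 genes with enough UMIs, 5.69% were at least 2-fold higher and 4.91% at least 2-fold lower. *Hspb1* (log2 ratio 5.55), *Vcam1* (4.26), *Asns* (3.72) and *Chac1* (3.71) were the highest list genes. Early response genes had 6 of 18 higher and a median of 0.79, differentiated genes 0 higher and 1 of 24 lower with a median of -0.33, cell cycle genes 0 higher and 6 of 10 lower with a median of -1.44, and Y-linked genes a median of 0.62. The lowest were *Top2a* (-3.23, interval -8.54 to -0.75), *Mcm5* (-2.83, -8.14 to -0.34) and *Ccnb2* (-2.45, -7.75 to 0.04), each from 1 UMI in cells with *Havcr1*, and *Birc5*, with 0 UMIs against 650 and at least 3.77-fold lower. In these medians a gene at 0 in 1 group (1 further injury gene and 4 cell cycle genes here) stands at its bound from 3 counts, or at 0 where the floor gives no bound.

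In young cells with *Havcr1* the further injury genes had 8 of 32 higher and 5 lower with a median of 0 (4 genes at 0 UMIs), and the differentiated genes 2 of 24 higher and 7 lower with a median of -0.47. Of all 11815 genes with enough UMIs, 4.64% were at least 2-fold higher and 10.4% at least 2-fold lower. The highest list genes were *Fgg* (3.85, with 36 of its 38 UMIs in 1 cell), *Fga* (3.30), *C3* (3.04) and *Dcdc2a* (2.31). The lowest, from 1 or 2 UMIs in cells with *Havcr1*, were *Mki67* (-4.15, interval -7.19 to -2.29), *Ccnb1* (-3.24, -8.54 to -0.75) and *Nr4a1* (-2.83, -8.14 to -0.35), beside *Sox4*, with 0 UMIs against 2212 and at least 9.15-fold lower. Early response genes had 1 of 18 higher and 5 lower with a median of -0.69, stress genes near *Gdf15* 2 of 9 higher and 1 lower with a median of 0.25, cell cycle genes 0 higher and 4 of 10 lower with a median of -0.91, and Y-linked genes 1 of 4 lower with a median of -0.64.

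Marks of other cell types also differed between the gated cells of the libraries. The 5 T cell markers, all with UMIs in both, summed to 18.1 CPM in young and 58.5 CPM in old proximal tubule cells, with *Trac* the highest. The 6 neutrophil markers, with *S100a9* the highest, summed to 4.88 and 6.72 CPM. The 9 of macrophages and monocytes, with *Csf1r* the highest in the young library and *Ly6c2* in the old, summed to 11.9 and 14.2 CPM. The 8 endothelial ones, led by *Plvap* and *Egfl7*, summed to 10.8 and 3.21 CPM with *Cdh5* and *Tie1* at 0 in the old library. The 5 ILC2 markers, led by *Gata3* and *Il17rb*, summed to 19.4 and 6.83 CPM, and the 5 of plasma cells, mostly *Xbp1*, to 86.6 and 149 CPM. The 6 erythroid markers, led by *Hbb-bs*, summed to 21.1 and 1.67 CPM, and the 6 of the loop of Henle to 357 and 375 CPM, nearly all of it *Cldn10*. In young cells with *Havcr1* the macrophage and monocyte list was 49.7 CPM against 11.4 CPM without, from 4 of its 9 genes, and in old cells 11.4 against 14.3 CPM. The T cell list was 36.7 against 17.4 CPM in the young library and 50.0 against 59.0 CPM in the old, and that of NK cells or ILC1 15.8 against 3.35 CPM in the young and 5.27 against 5.96 CPM in the old. The ILC2 list was 12.2 against 19.2 CPM (young) and 29.8 against 6.40 CPM (old). The plasma cell list, mostly *Xbp1*, was 82.1 against 87.0 CPM and 258 against 147 CPM. The part of these lists in the results was not tested.

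The members had other sources in these libraries, and for some the proximal tubule was a minor one. *Havcr1* was highest in plasmacytoid dendritic cells, which make type I interferon, at 113 CPM (90.3 to 140.2) in the young library and 119 CPM (98.1 to 143) in the old, intervals that overlap. Of these cells 14.3% and 9.09% had *Havcr1* at 1000 UMIs, and 57.1% and 62.3% unthinned. They were 84 and 77 cells but held 16.5% and 17.4% of its UMIs, against 69.9% and 54.5% in the proximal tubule. By level the proximal tubule was not above the average of all kept cells. *Havcr1* was 3.06 CPM (young) and 5.24 CPM (old) there, against 3.49 and 5.46 CPM over all kept cells. In those with *Siglech*, a mark chosen after its values were seen, *Havcr1* was 117 and 134 CPM.

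*Lcn2* came mostly from neutrophils, at 867 CPM (806 to 932) in the young library and 1515 CPM (1456 to 1576) in the old. They held 85.6% and 63.3% of its UMIs, while the proximal tubule held 1.37% and 1.45%. Loop of Henle cells had 27.4 CPM in the young library and 230.3 CPM in the old, with 0 of 30 young cells (up to 10%) and 21.8% of 55 old cells at 1000 UMIs. Old cells of the distal convoluted tubule had 251 CPM, of which 137 of 224 UMIs lay in 1 of the 6 cells with *Lcn2*. Among old plasmacytoid dendritic cells 1 cell without *Siglech* held 162 UMIs of *Lcn2*. This old class also had 545 *Spp1* and 105 *Clu* UMIs, of which its cells with *Siglech* held 63 and 1.

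*Clu* was highest in urothelium, the lining of the renal pelvis, at 2903 CPM in the young library and 2491 CPM in the old, in 20 and 21 of 28 cells each at 1000 UMIs. *Spp1* was 18137 and 9022 CPM there. In loop of Henle cells *Spp1* was 2549 CPM in the young library and 10076 CPM in the old, and *Clu* 16.0 and 361 CPM. The 37 old distal convoluted tubule cells had 5408 CPM of *Spp1*, 1292 CPM of *Clu*, 572 CPM of *Gdf15* and 111 CPM of *Sox9*; the young library had 5 such cells, too few for a level. *Sox9* in the loop was 16.0 CPM in the young library and 60.6 CPM in the old, and *Gdf15* 98.2 and 245 CPM.

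Of the *Gdf15* UMIs the proximal tubule held 95.9% in the young and 83.9% in the old library. Of the UMIs of all genes it held 116073424 of 145647185 young and 67810378 of 119218130 old ones. By level, old *Gdf15* was higher in the distal convoluted tubule, as given above, than in the proximal tubule at 281 CPM. In T cells *Spp1* was 15.2 CPM (young) and 97.1 CPM (old), where 726 of 2077 old UMIs lay in 1 cell. *Timp1* had 119 of its 150 old UMIs in a single cell with stromal markers. *Cp* was 8.80 CPM in young and 17.5 CPM in old macrophages and monocytes, and 24.6 and 33.1 CPM in urothelium. *Krt20* had 3 young and 5 old UMIs in urothelium.

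**Figure D4:**
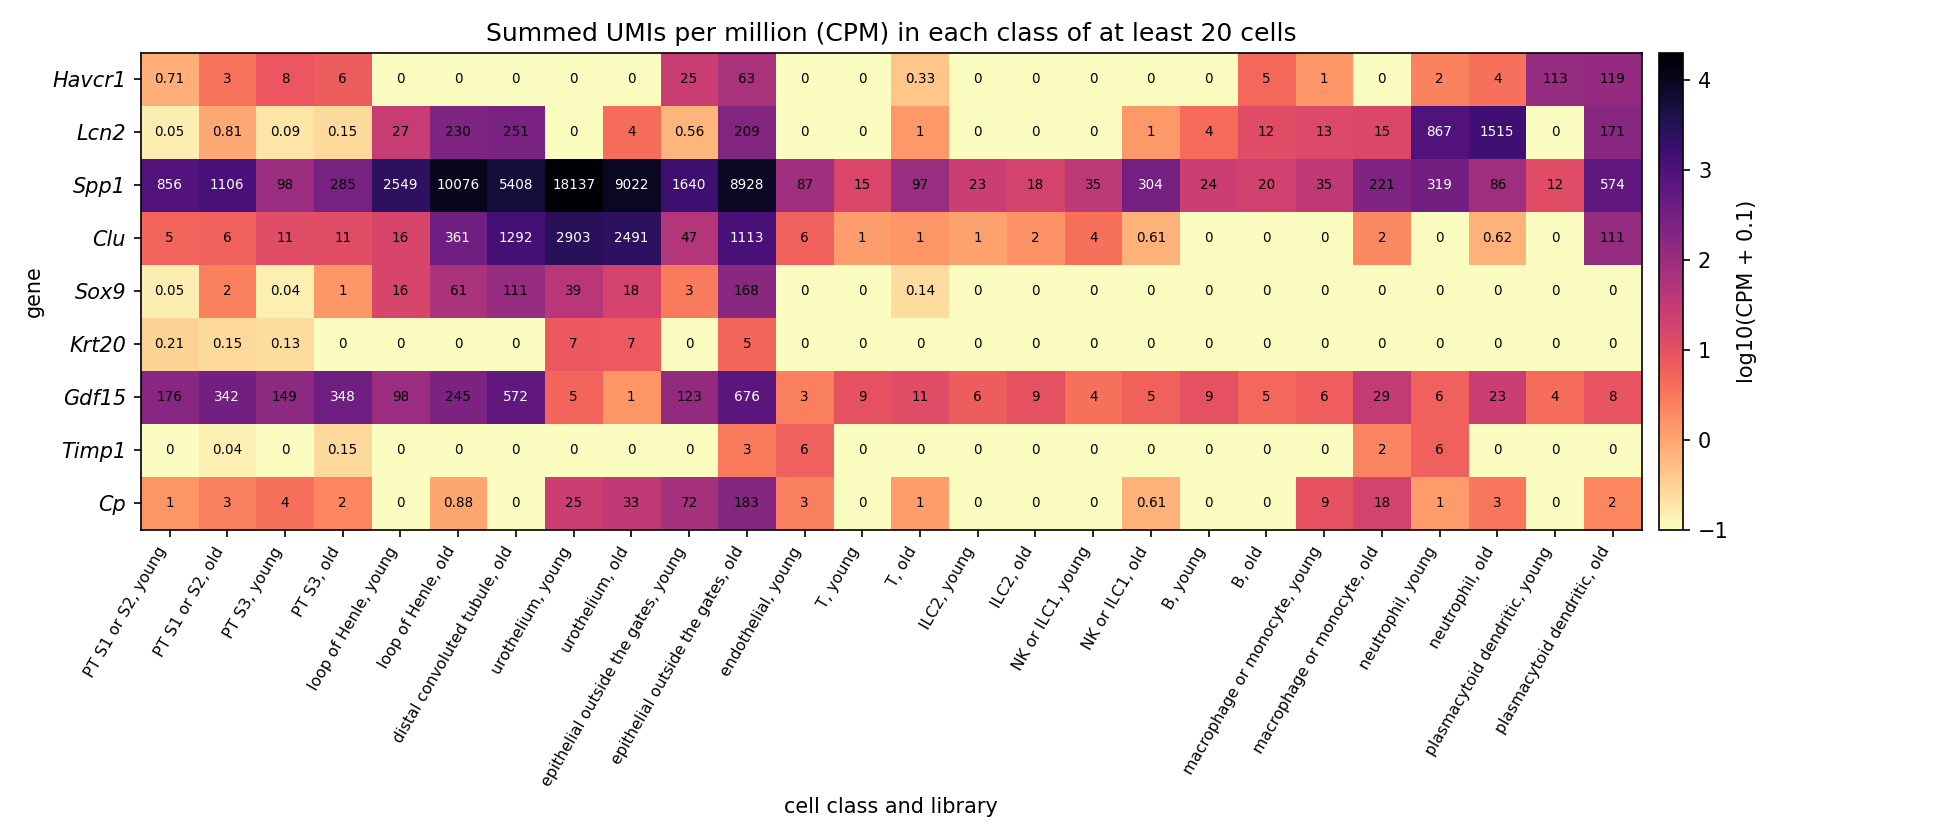
Level of each member in CPM (printed in each field; color is the log10 of CPM plus 0.1) in proximal tubule segments and the other cell classes with at least 20 cells, by library. *Havcr1* was highest in plasmacytoid dendritic cells at 113 CPM (young) and 119 CPM (old), and *Lcn2* in neutrophils at 867 and 1515 CPM. The old plasmacytoid dendritic class includes cells without *Siglech*. In its cells with *Siglech*, *Lcn2*, *Spp1* and *Clu* were 0, 75.5 and 1.20 CPM.

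Epithelial cells with too few markers of any class, or with equal shares of the markers of their 2 leading classes, fall outside the gates. Among barcodes given no class, 75 young and 98 old ones had no *Ptprc* UMI and UMIs of at least 2 of the epithelial genes *Epcam*, *Cdh1*, *Cdh16* and *Pax8*, a group defined after seeing the data. Their median depths were 18985 and 20020.5 UMIs. They were not the same mixture: 48 of the young cells had 3 of the proximal tubule markers, 1 short of the gate, while 50 of the old cells had 0. *Umod* of the loop of Henle was in 46 and *Slc12a3* of the distal convoluted tubule in 38 of the old cells, and in 4 young cells each. The proximal tubule gene *Slc34a1* was in 61 young and 53 old cells, and the keratin gene *Krt7* in 10 and 54; these 4 genes were chosen after their values were seen.

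The part of each scarce member held by these cells differed between genes and libraries. *Sox9* was 2.82 CPM in young and 168 CPM in old ones, 13.2% and 48.8% of all *Sox9* UMIs. *Cp* was 71.5 and 183 CPM, 35.1% and 37.8% of its UMIs. *Havcr1* was 25.3 and 62.7 CPM, from 45 of 508 young and 130 of 651 old UMIs, with 56 of the old ones in 1 cell. *Lcn2* was 0.563 CPM from 1 UMI in the young library and 209 CPM in the old, 0.114% and 11.3% of its UMIs, and *Clu* 47.3 and 1113 CPM, 3.39% and 32.8%. *Krt20* had 0 of 36 young and 10 of 27 old UMIs here. *Spp1* was 1640.4 and 8928 CPM and *Gdf15* 123 and 676 CPM.

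Co-detection in these cells is given beside that of the loop of Henle, whose *Umod* many of the old ones held. At 5000 UMIs, reached by 66 young and 89 old cells, at least 3 members were in 8 young (12.1%) and 53 old cells (59.6%). At least 2 of the 7 scarce members were in 10.6% and 44.9%. In cells gated as loop of Henle, 2 of 29 young (6.90%) and 25 of 54 old ones (46.3%) had at least 3 members, and 3.45% and 31.5% at least 2 scarce ones. Single members are given for the epithelial cells outside the gates, not for the loop of Henle. Among these epithelial cells *Sox9* was in 3.03% of young and 30.3% of old ones, and *Clu* in 19.7% and 55.1%. *Lcn2* was in 1.52% and 16.9% of them, *Cp* in 19.7% and 19.1% and *Havcr1* in 10.6% and 8.99%.

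The genes most like each member over 24 class-by-library profiles describe where each is made. The points share libraries and cells, and 13024 genes were compared by Pearson's r. *Havcr1* was closest to *Foxr1* (0.93), *Sh3bgr* (0.92) and *Gm1965* (0.91). *Sox9* was closest to *Dtna* (0.97), *D730001G18Rik* (0.97) and *Ppp2r2b* (0.96), and *Clu* to *Gpr39*, *Tnk1* and *Tmem45b* (all 0.94). *Spp1* was closest to *Ajuba*, *Serinc2* and *Cdo1* (all 0.91), *Gdf15* to *Cpeb1* (0.93), *Tnfsf15* (0.91) and *Acss3* (0.90), and *Cp* to *Agmo* (0.86), *Abcc3* (0.83) and *Ang* (0.80). *Lcn2* was closest to *Rpl3l* (0.82), *4732465J04Rik* (0.81) and the sodium channel gene *Scnn1a* (0.80). *Krt20* was closest to *Ern2*, *Lypd2* and *Msx2* (each above 0.99) and *Timp1* to *Cd300lg* (0.81), *Chrm3* (0.81) and *Flt1* (0.80), but *Krt20* and *Timp1* did not reach 10 CPM in any profile.

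Promoter sequence is a feature that the choice of the genes did not use. RefSeq promoters of build GRCm38.p6 matched 7 of the 9 members by name, with 12 windows, and none for *Clu* and *Sox9*. The AP-1 motif TGANTCA was found on either strand in 1 member window, that of *Cp*, and in 6.75% of all 32851 promoters. The STAT motif TTCNNNGAA was in 0 of the 12 windows and 7.02% of promoters, and the TATA box TATAAA in windows of *Cp*, *Krt20* and *Spp1* and in 12.4% of promoters.

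A window each of *Havcr1* and *Cp* is shown because these members shared cells in the old library. Of the 2 windows of *Cp*, the window not shown held the TATA box. The window shown held a match to the pattern TGANTCA with T at the open position N, called the AP-1 site below. It lies at chr3:19956804-19957053 on the plus strand, with the AP-1 site in capitals: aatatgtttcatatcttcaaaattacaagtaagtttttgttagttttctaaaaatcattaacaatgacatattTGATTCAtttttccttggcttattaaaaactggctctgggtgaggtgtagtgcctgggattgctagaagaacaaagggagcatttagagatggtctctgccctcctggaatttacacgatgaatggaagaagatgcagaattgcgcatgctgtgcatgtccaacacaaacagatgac. *Havcr1* had 3 windows, none with any of the 3 motifs, and the one of lowest coordinates, chr11:46739973-46740222 on the plus strand, is: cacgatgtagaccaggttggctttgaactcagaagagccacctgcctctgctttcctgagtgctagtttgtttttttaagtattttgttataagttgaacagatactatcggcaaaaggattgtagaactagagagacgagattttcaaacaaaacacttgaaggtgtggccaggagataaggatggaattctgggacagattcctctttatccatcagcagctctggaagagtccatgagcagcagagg.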

How the data were processed

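The authors deposited raw UMI counts per gene and barcode from Cell Ranger 3 (3.1.0 in the file header, mm10) for 2 libraries, 1 per age. Barcodes under 200 genes or above 20% mitochondrial UMIs were removed; doublets called by Scrublet (328 young, 246 old) were not removed as such. Classes were set by markers after thinning to 1000 UMIs (random seed 7), the proximal tubule by at least 4 of 16 markers; barcodes with markers of several lineages, or of tissue with *Ptprc*, were set aside as mixed. Groups were compared by CPM of summed UMIs without a test; genes needed 100 UMIs, and 3 counts were the floor of a 0. Named genes are the 9 members, the list genes with the 4 highest and 4 lowest ratios over all fixed lists, the 10 leading genes of the *Havcr1* split and the 3 genes most similar to each member. The members and lists were chosen with earlier results of these data known. Alternatives covered depth, filters, gate, doublets, segments and sex-linked UMIs. Software was Scanpy 1.11.5, Matplotlib 3.10.9 and SciPy 1.17.1 with NumPy 2.4.6 and pandas 2.3.3 in Python 3.11.15.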

Additional observations from a re-analysis of the deposited data

Results flagged for a closer look

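The old over young log2 ratio of *Havcr1* was 2.26 in S1 or S2 cells and -0.34 in S3 cells, and that of *Cp* was 0.93 in S1 or S2 cells and -0.85 in S3 cells. For both genes the point values went opposite ways in the 2 groups of segments, but the interval of *Havcr1* in S3 cells (-0.86 to 0.16) spans 0, and that of *Cp* was -1.78 to -0.02. The difference between segments was not tested. The S3 marker *Cyp7b1* was itself lower in old proximal tubule cells (log2 ratio -4.87). Cells given no segment, which held 224 of the 355 old *Havcr1* and 336 of the 417 old *Cp* UMIs, are in neither group.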

How the results depend on the processing

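No paired analysis was possible because there is 1 library per age, and for the same reason nothing was tested. Of the alternative values of the main results, 98 stayed within their counting interval, 46 moved beyond it and 9 moved to the opposite sign; of the 98, 2 values of *Clu* also changed sign (-0.04 old over young without doublets, -0.20 in the young *Havcr1* split at 2000 UMIs); of the others 23 stayed and 53 moved. The cause was not tested. Old over young log2 ratios were as follows. In S1 or S2 cells only, *Havcr1* was 2.26, *Lcn2* 4.09 (from 2 young and 21 old UMIs), *Spp1* 0.37, *Clu* 0.26, *Gdf15* 0.96 and *Cp* 0.93. There 0.450% of old cells had at least 2 scarce members. In S3 cells only, *Havcr1* was -0.34 and *Cp* -0.85, both of opposite sign, *Spp1* 1.54 and *Gdf15* 1.22. *Lcn2* there was 0.77 from 2 young UMIs and 1 old UMI, with an interval (-5.11 to 5.04) that spans 0. In *Xist*-only cells *Havcr1* was 0.10, *Spp1* 0.27, *Clu* 1.03, *Gdf15* 0.76 and *Cp* 1.27. *Krt20* there was -3.12 (-8.54 to -0.36) from 12 young UMIs and 1 old UMI. In Y-only cells *Havcr1* was 1.14, *Spp1* 1.03 and *Gdf15* 0.86. With the mean of cell CPM *Havcr1* was 1.32, *Spp1* 0.79, *Gdf15* 0.85 and *Cp* 2.42. Without doublets *Lcn2* was 1.56 and *Spp1* 0.75. With 6 gate markers *Lcn2* was 4.26 (from 4 young and 43 old UMIs), *Spp1* 0.62, *Gdf15* 0.86 and *Cp* 1.60. With 3 markers, and without cells with *Ptprc*, *Spp1* was 0.79. Thinned to 2000 UMIs, at least 2 scarce members were in 0.0163% of young and 0.340% of old cells.

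For cells with over without *Havcr1*, splitting at 2000 UMIs gave *Cp* 1.22 (-1.07 to 2.79), *Spp1* -1.16 and *Gdf15* -0.25 in the young library, the last 2 of opposite sign, and *Sox9* 6.499, *Cp* 5.78, *Spp1* 3.45 and *Gdf15* 1.88 in the old. In S3 cells only, young *Cp* was 2.04, *Spp1* 2.52 and *Gdf15* -0.22, and old *Cp* was 3.53, *Spp1* -0.30, *Gdf15* 0.72 and *Clu* -0.53; young *Gdf15* and old *Spp1* and *Clu* changed sign. Without the top cell of each group, an alternative chosen after seeing the data as were the *Siglech* cells and the epithelial cells outside the gates, young *Cp* was 3.06, *Spp1* -0.10 and *Gdf15* -0.075, the last 2 of opposite sign, and old *Cp* was 5.05, *Spp1* 2.77 and *Gdf15* 1.46. Depth limits most the scarce members: a share of 0 among 5489 young cells allows up to 0.0547%.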
